A study of Rattus norvegicus with 29 samples.

Results

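The beta subunits of the sodium-potassium ATPase, Atp1b1, Atp1b2 and Atp1b3, were followed across age in the CA1 field of the rat hippocampus. Members were all probe sets whose single gene symbol in the array's annotation is 1 of these 3 genes, which gave 7 of the 8740 probe sets that are not controls. Atp1b1 has 3 of them, Atp1b2 has 3 and Atp1b3 has 1. The catalytic alpha chains that pair with these subunits are not analysed here, so the values below concern the beta side of the pump.

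The sodium-potassium ATPase moves sodium out of the cell and potassium into it at the cost of ATP, and it restores the ion gradients that firing neurons run down. Each pump pairs a catalytic alpha chain with a glycosylated beta chain, which the alpha chain needs to fold, to leave the endoplasmic reticulum and to reach the plasma membrane. In brain, Atp1b1 is found mainly in neurons, Atp1b2 is the adhesion molecule on glia (AMOG) and is strong in astrocytes, and Atp1b3 is expressed more broadly.

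RNA from CA1 tissue of male Fischer rats was hybridised to 29 single-colour Affymetrix rat U34 arrays of design A. The groups, taken from the sample titles, were 9 young arrays at 4 months, 10 mid-aged arrays at 14 months and 10 aged arrays at 24 months. Rats of all 3 ages had learned a pair of tasks that the labels abbreviate as SWM and OMT. Tissue was collected 24 h after a training and testing sequence of 7 days, so that no group is untrained. The labels state 10 rats per age without saying that each array holds RNA of 1 rat, and young 1 is not among the samples, so n and SD count arrays, and each p-value rests on the spread among arrays.

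Between 35.6% and 46.5% of probe sets were called present per array, and the tests covered the 3861 probe sets with a present call on 9 or more of the 29 arrays. No pair of arrays was identical, and the highest correlation between 2 arrays was 0.96. All 16 neuron markers on the array passed this filter; the fields of the hippocampus were not told apart here. The 6 arrays with the lowest mean correlation with the other arrays of their age were 3 mid-aged (1, 6 and 8) and 3 aged (3, 4 and 8). Array names in the file headers come in a longer and a shorter style: the shorter was used for 5 young, 4 mid-aged and 0 aged arrays. The control probe sets for Gapdh, a glycolytic enzyme, give the ratio of 3′ to 5′ signal, which moves with RNA integrity. Its log2 averaged -0.05 ± 0.25 in young, -0.14 ± 0.22 in mid-aged and 0.05 ± 0.36 in aged arrays (SD), and no pair of ages passed an exact permutation test (two-sided p between 0.173 and 0.495).

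Of the 7 member probe sets, 6 were tested, and none of the 6 differed between any pair of ages at an adjusted p under 0.05. Over all tested probe sets the share past that threshold was 1.66% for aged vs young, 0.414% for mid-aged vs young and 0.0518% for aged vs mid-aged. At an unadjusted p under 0.05, 0 of the 6 passed for aged vs young, where 14.2% of all probe sets did, and 1 of the 6 passed for mid-aged vs young, where 11.2% did. For aged vs mid-aged, 0 of the 6 did so, against 5.18% of all. The probe set that passed without adjustment was J04629_at of Atp1b2. It also had the unadjusted p of 0.0331 when the mid-aged mean was set against the middle of young and aged, a contrast with 0% of all probe sets past the adjusted threshold and 5.23% past the unadjusted one. In tissue RNA, fewer cells of a type and less RNA per cell cannot be told apart.

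**Figure D1:**
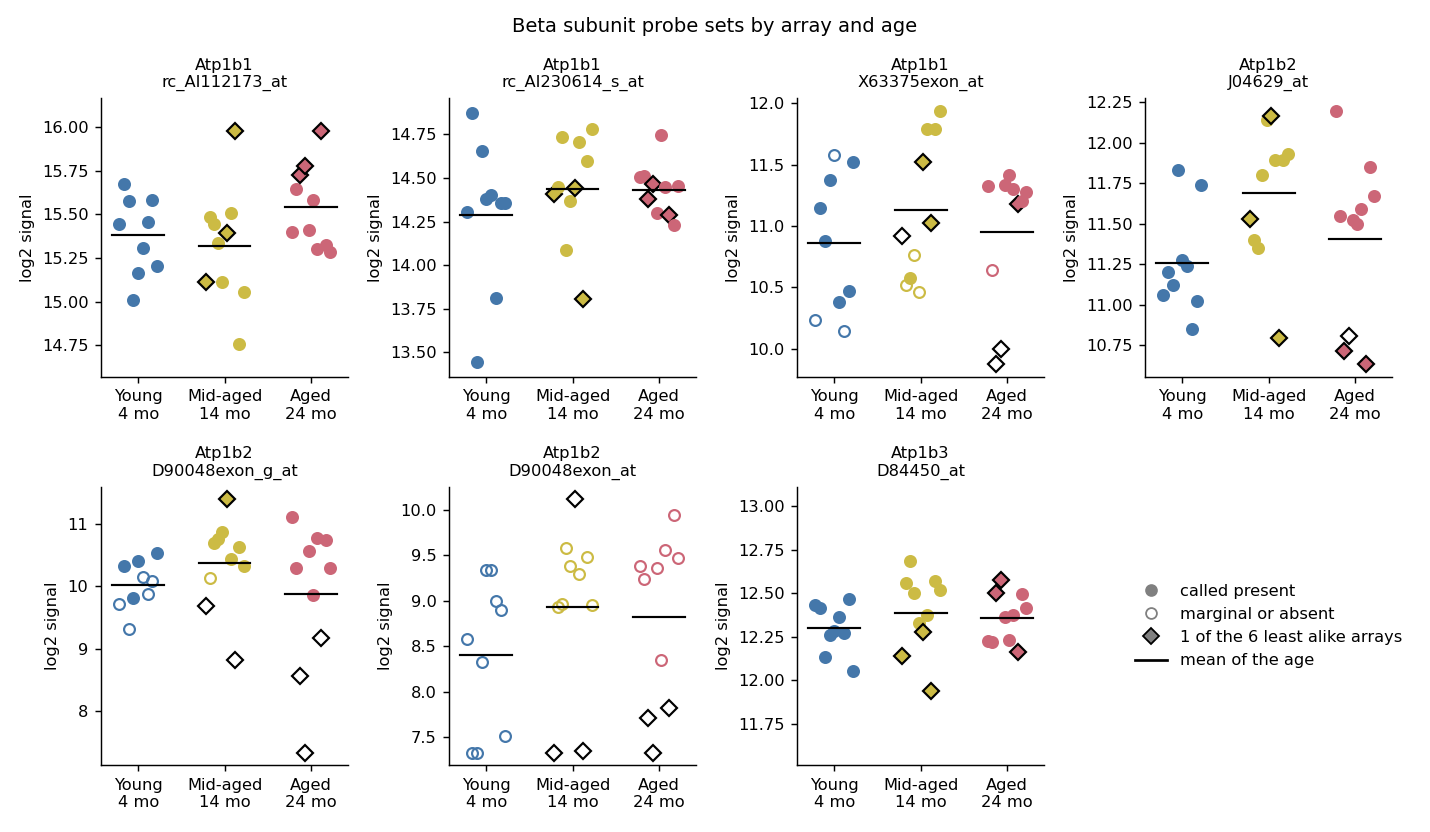
Log2 signal of the 7 member probe sets on each array, with young arrays (at 4 months), mid-aged arrays (at 14 months) and aged arrays (at 24 months) from left to right; each panel has its own axis, filled marks were called present, diamonds are the 6 arrays least like the rest of their age, and bars are means. All 3 ages overlap in every panel, and the 3 aged diamonds of J04629_at lie between 10.64 and 10.81, below every young array.

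Atp1b1, the subunit found mainly in neurons, was measured by 3 probe sets. According to the platform descriptions, rc_AI112173_at and rc_AI230614_s_at were designed on 3′-end sequence tags, and X63375exon_at on the beta-1 gene. In Affymetrix's naming, the ending _s_at marks a probe set whose probes match more than 1 transcript.

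The probe set rc_AI112173_at was called present on all 29 arrays. Its log2 signal had a lowest, median and highest value of 15.01, 15.44 and 15.68 in young arrays, of 14.76, 15.37 and 15.98 in mid-aged arrays, and of 15.29, 15.50 and 15.98 in aged arrays. The ages overlapped: 3 of the 10 aged arrays lay above every young array, and 3 of the 9 young arrays lay below every aged array. The aged mean was 15.54 ± 0.24 and the young mean 15.38 ± 0.22, a difference of 0.16 ± 0.12 (SE, 95% interval -0.09 to 0.41, adjusted p = 0.586). Mid-aged arrays averaged 15.32 ± 0.33, which differed from young by -0.06 ± 0.12 (adjusted p = 0.889). The difference of aged from mid-aged arrays was 0.22 ± 0.12 (95% interval -0.02 to 0.47, adjusted p = 0.924). Of the aged arrays, the 3 least alike ones were the highest, at 15.73 to 15.98, while the other 7 spanned 15.29 to 15.64. Without the 6 least alike arrays, the aged minus young difference was 0.04 (adjusted p = 0.869).

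The other 3′-end probe set of Atp1b1, rc_AI230614_s_at, was also present on all 29 arrays. It had a lowest, median and highest log2 signal of 13.44, 14.36 and 14.87 in young arrays, 13.81, 14.45 and 14.78 in mid-aged arrays, and 14.23, 14.45 and 14.75 in aged arrays. Every aged value lay within the range of the young ones. The SD was 0.43 in young, 0.30 in mid-aged and 0.15 in aged arrays. Aged minus young was 0.14 ± 0.14 (adjusted p = 0.685), mid-aged minus young 0.15 ± 0.14 (adjusted p = 0.727) and aged minus mid-aged -0.01 ± 0.13 (adjusted p = 0.992).

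X63375exon_at had a present call on 6 young arrays of 9, on 6 mid-aged arrays of 10 and on 7 aged arrays of 10. Its lowest, median and highest log2 signal was 10.14, 10.88 and 11.58 in young, 10.47, 10.98 and 11.94 in mid-aged, and 9.88, 11.24 and 11.42 in aged arrays. The groups overlapped in both directions: 2 aged arrays lay below every young array and 3 mid-aged arrays lay above every young array. The differences were 0.10 ± 0.25 for aged minus young (adjusted p = 0.897), 0.27 ± 0.25 for mid-aged minus young (adjusted p = 0.726) and -0.18 ± 0.24 for aged minus mid-aged (adjusted p = 0.933). This probe set followed the array name style: the arrays of the longer style averaged 11.50 ± 0.43 and those of the shorter style 10.58 ± 0.13 among mid-aged arrays (n = 6 and 4), and 11.23 ± 0.28 and 10.56 ± 0.58 among young arrays (n = 4 and 5). With the style as a term, the aged minus young difference had the opposite sign, -0.35 (adjusted p = 0.518). All 3 probe sets of Atp1b1 had a positive aged minus young difference in the reported fit, and they disagreed in sign for mid-aged minus young.

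Atp1b2, the glial adhesion molecule, was measured by J04629_at, described as the complete coding sequence of the beta-2 mRNA, and by 2 probe sets on the beta-2 gene and its 5′ flank, D90048exon_g_at and D90048exon_at. J04629_at had a present call on all 9 young arrays, all 10 mid-aged arrays and 9 aged arrays of 10. Its log2 signal had a lowest, median and highest value of 10.85, 11.20 and 11.84 in young arrays, 10.80, 11.85 and 12.17 in mid-aged arrays, and 10.64, 11.54 and 12.20 in aged arrays. Of the 10 mid-aged arrays, 9 lay above the young median, 5 above every young array and 1 below every young array. Among the aged arrays 7 lay above the young median, 2 above every young array and 3 below every young array.

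The mid-aged mean of J04629_at was 11.69 ± 0.42 and the young mean 11.26 ± 0.33 (SD, n = 10 and 9). That is a difference of 0.43 ± 0.19 on the log2 scale (SE, 95% interval 0.04 to 0.81), or 1.35-fold with an interval of 1.03 to 1.76. Its unadjusted p was 0.0299, and its adjusted p of 0.398 did not pass. The difference was larger in size than that of 97.0% of the tested probe sets, whereas by p it ranked 287 among the 3861. Aged arrays averaged 11.40 ± 0.52, which gave 0.14 ± 0.19 against young (95% interval -0.24 to 0.53, adjusted p = 0.787) and -0.29 ± 0.18 against mid-aged (95% interval -0.66 to 0.09, adjusted p = 0.924). By their means the ages stood in the order young, aged and mid-aged, and no neighbours in this order differed past the threshold.

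The values of J04629_at depended on the 6 least alike arrays. Aged arrays 3, 4 and 8 had log2 signals of 10.72, 10.81 and 10.64, while the other 7 aged arrays averaged 11.70 ± 0.25 and spanned 11.50 to 12.20. Mid-aged arrays 1, 6 and 8 had 11.53, 12.17 and 10.80, while the other 7 mid-aged arrays averaged 11.77 ± 0.29. Aged arrays 3, 4 and 8 also had the highest Gapdh 3′ to 5′ log2 ratios among aged arrays, 0.48, 0.81 and 0.16. Mid-aged array 8 had the highest of its age, 0.28, while mid-aged arrays 1 and 6 had -0.21 and -0.41. The part of this ratio in the low J04629_at values was not tested. None of the 6 was a young array. Without them, the mid-aged minus young difference was 0.51 with an adjusted p of 0.0481, which passed, and the aged minus young difference was 0.44 with an adjusted p of 0.0763. In that smaller set the counts over all probe sets were 152 for aged vs young and 117 for mid-aged vs young, beside 64 and 16 with all arrays. Weights per array estimated by limma gave 0.54 (adjusted p = 0.0543) for mid-aged minus young and 0.39 (adjusted p = 0.0877) for aged minus young.

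Name style also moved the value of J04629_at. Mid-aged arrays averaged 11.70 ± 0.49 in the longer and 11.67 ± 0.37 in the shorter style (n = 6 and 4), whereas young arrays averaged 11.48 ± 0.36 in the longer and 11.09 ± 0.17 in the shorter style (n = 4 and 5). The mid-aged minus young difference was 0.23 within the longer style (adjusted p = 0.964), 0.58 within the shorter style (adjusted p = 0.0952) and 0.40 with style as a term (adjusted p = 0.433). Aged minus young was -0.07 within the longer style (adjusted p = 0.941), and the shorter style holds no aged array. What the style stands for is not stated in the labels or headers.

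**Figure D2:**
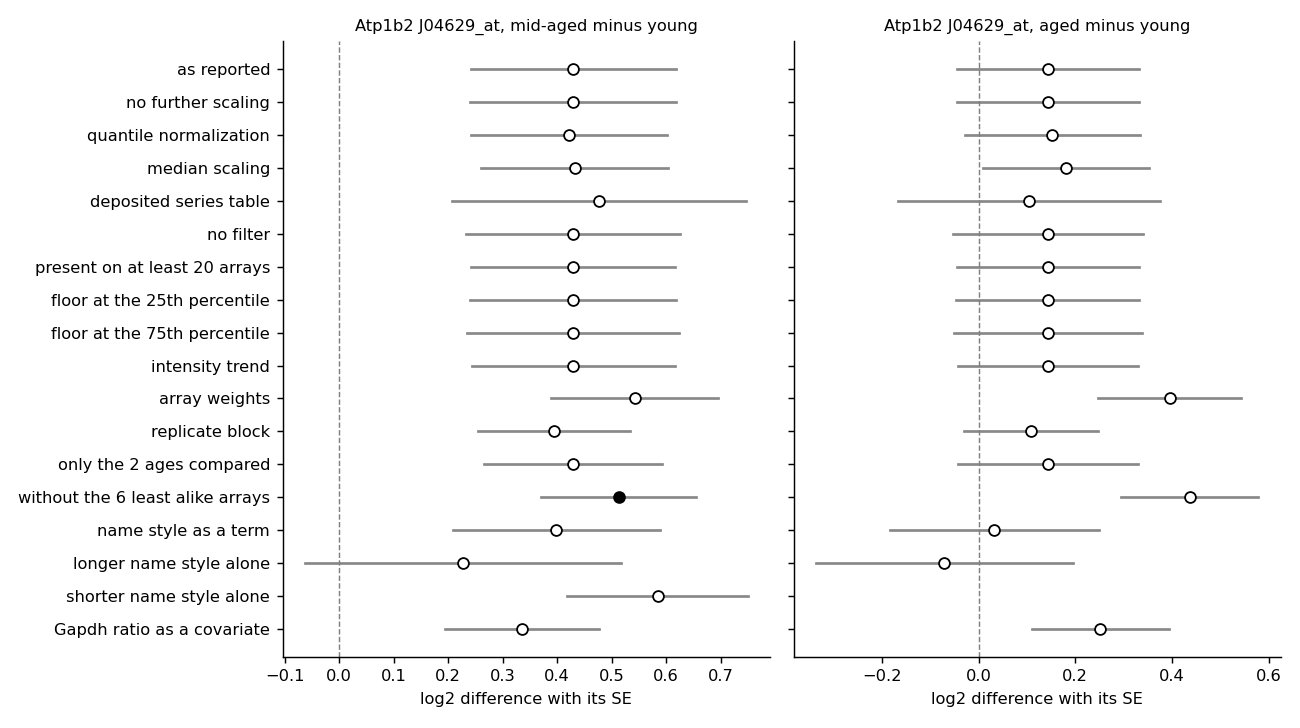
Log2 difference of Atp1b2 J04629_at under each processing setting, mid-aged minus young on the left and aged minus young on the right, with bars of 1 SE; a filled point has an adjusted p under 0.05. The 1 filled point is mid-aged minus young without the 6 least alike arrays, at 0.51, and the shorter name style has no aged array and therefore no point on the right.

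D90048exon_g_at had a present call on 4 young arrays of 9, on 7 mid-aged arrays of 10 and on 7 aged arrays of 10. Its lowest, median and highest log2 signal was 9.31, 10.09 and 10.53 in young, 8.82, 10.53 and 11.39 in mid-aged, and 7.33, 10.29 and 11.11 in aged arrays, the lowest aged value being the floor. Of the aged arrays, 4 lay above every young array and 3 below every young array. The 3 low ones were the same aged arrays 3, 4 and 8, at 8.57, 7.33 and 9.16. Aged minus young was -0.15 ± 0.36 (adjusted p = 0.885), mid-aged minus young 0.35 ± 0.36 (adjusted p = 0.768) and aged minus mid-aged -0.50 ± 0.35 (adjusted p = 0.924). Leaving out aged array 4 alone turned aged minus young to 0.13, and leaving out all 6 least alike arrays turned it to 0.49 (adjusted p = 0.0934). The last Atp1b2 probe set, D90048exon_at, was called present on 0 of 29 arrays and was not tested. Its log2 signal averaged 8.41 ± 0.83 in young, 8.94 ± 0.91 in mid-aged and 8.82 ± 0.92 in aged arrays, with 4 values at the floor, so its ages are given no order.

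Atp1b3, the broadly expressed subunit, has 1 probe set, D84450_at, designed on the beta-3 mRNA and present on all 29 arrays. Its lowest, median and highest log2 signal was 12.05, 12.28 and 12.47 in young, 11.94, 12.44 and 12.68 in mid-aged, and 12.16, 12.37 and 12.58 in aged arrays. Means were 12.30 ± 0.14, 12.39 ± 0.23 and 12.36 ± 0.14 in that order of ages. Aged minus young was 0.06 ± 0.09 (adjusted p = 0.818), mid-aged minus young 0.09 ± 0.09 (adjusted p = 0.741) and aged minus mid-aged -0.03 ± 0.08 (adjusted p = 0.970). The 95% interval of aged over young was 0.922-fold to 1.18-fold, the narrowest of the 6 probe sets, in a fit without name style. Mid-aged arrays averaged 12.30 ± 0.24 in the longer and 12.52 ± 0.15 in the shorter style (n = 6 and 4). Young arrays averaged 12.22 ± 0.16 and 12.36 ± 0.09 (n = 4 and 5). With style as a term, aged minus young was 0.16 ± 0.09 (unadjusted p = 0.0924). In mid-aged rats the 3 least alike arrays averaged 12.12 and the other 7 averaged 12.51 ± 0.12. Without the 6 least alike arrays the mid-aged minus young difference of Atp1b3 was 0.21 (unadjusted p = 0.0105, adjusted p = 0.123).

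**Figure D3:**
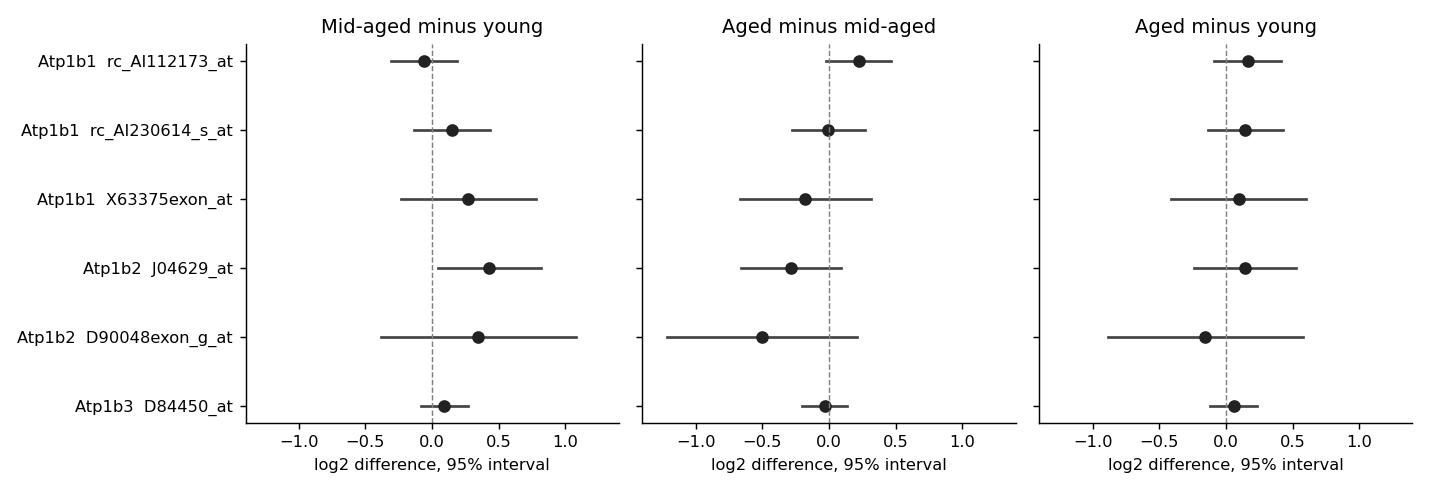
Log2 differences of the 6 tested member probe sets for each pair of ages, with 95% intervals from limma. Every interval includes 0 except that of J04629_at for mid-aged minus young, which runs from 0.04 to 0.81.

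The width of these intervals sets what the arrays could show. For aged over young the interval ran from 0.941-fold to 1.33-fold for rc_AI112173_at, from 0.909-fold to 1.34-fold for rc_AI230614_s_at and from 0.846-fold to 1.44-fold for J04629_at. D90048exon_g_at had the widest, 0.541-fold to 1.49-fold. The SD within ages, pooled as the root mean square over the 3 ages, was 0.17 for Atp1b3 D84450_at, where 89.4% of all tested probe sets had a larger one. It was 0.27 for rc_AI112173_at, close to the median of 0.27 over all tested probe sets, and 0.31 for rc_AI230614_s_at. It reached 0.43 for J04629_at, 0.57 for X63375exon_at and 0.83 for D90048exon_g_at, with 11.9%, 3.86% and 0.673% of all tested probe sets above them.

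Relations between the members from array to array were computed within ages. After the mean of each age was taken off, 19 relations were computed over the 29 arrays (7 between member probe sets and 12 with 2 measures of the array), each with 100000 permutations of the arrays within ages, two-sided, and adjustment over the 19. The array measures were the Gapdh ratio and the mean correlation with the other arrays of the same age. Both sides of each relation come from the same hybridisations. The 2 better detected probe sets of Atp1b2, J04629_at and D90048exon_g_at, varied together with a Pearson r of 0.78 (permutation p = 3e-05, adjusted 0.000142) and a Spearman rho of 0.73 (permutation p = 7e-05, adjusted 0.00057). Their r was 0.74 without the 2 farthest arrays, 0.83 within the longer and 0.69 within the shorter name style, and 0.32 among young arrays alone.

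The probe sets of Atp1b1 showed weaker and mixed relations. The r between its 3′-end pair was -0.32 (permutation p = 0.103, adjusted 0.151; rho -0.25, permutation p = 0.208, adjusted 0.303), with -0.12 when the 2 farthest arrays were left out, -0.37 within the longer and 0.01 within the shorter style. Between rc_AI112173_at and X63375exon_at r was -0.41 (permutation p = 0.0312, adjusted 0.0538) and rho -0.48 (permutation p = 0.0112, adjusted 0.0305), and between rc_AI230614_s_at and X63375exon_at r was 0.30 (permutation p = 0.124, adjusted 0.168) and rho 0.44 (permutation p = 0.0223, adjusted 0.0498). Without the 2 farthest arrays these r were -0.41 and 0.40. They were -0.45 and 0.33 within the longer style, and -0.51 and 0.24 within the shorter style.

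Atp1b1 rc_AI112173_at and Atp1b2 J04629_at, 1 probe set of each gene, ran in opposite directions across arrays. Their r was -0.73 (permutation p = 1e-05, the smallest that these permutations can give, adjusted 6.33e-05) and their rho -0.69 (permutation p = 0.00012, adjusted 0.00057). It was -0.70 without the 2 farthest arrays, -0.72 within the longer and -0.78 within the shorter style, and lay between -0.84 and -0.67 within the 3 ages. Both probe sets also followed the Gapdh ratio, with r of 0.71 and -0.70, and the part of that ratio in their relation was not tested. The other probe sets of Atp1b1 and Atp1b2 were not compared across the genes. How many gene pairs have so large an r was not computed. Atp1b3 D84450_at had an r of -0.22 with rc_AI112173_at (permutation p = 0.321, adjusted 0.358; rho -0.02, permutation p = 0.915, adjusted 0.966). With J04629_at its r was -0.01 (permutation p = 0.945, adjusted 0.945; rho -0.18, permutation p = 0.357, adjusted 0.424). Neither r of Atp1b3 kept its size: without the 2 farthest arrays they were 0.17 and -0.46, within the longer style -0.40 and 0.15, and within the shorter style 0.75 and -0.55.

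The relation with the Gapdh ratio of the arrays had an adjusted p under 0.05 for 4 of the 6 tested probe sets. The share of all probe sets that would pass the same test was not computed, so the count cannot be read as particular to these members. Atp1b1 rc_AI112173_at was higher where the 3′ over 5′ ratio was higher, with r 0.71 (permutation p = 1e-05, adjusted 6.33e-05) and rho 0.79 (permutation p = 1e-05, adjusted 0.00019). Atp1b2 J04629_at was lower there, with r -0.70 (permutation p = 0.00011, adjusted 0.000418) and rho -0.66 (permutation p = 0.00026, adjusted 0.000988). D90048exon_g_at of Atp1b2 had r -0.80 (permutation p = 1e-05, adjusted 6.33e-05) and rho -0.70 (permutation p = 0.00012, adjusted 0.00057). X63375exon_at had r -0.49 (permutation p = 0.00939, adjusted 0.0223), which was -0.29 without the 2 farthest arrays, and rho -0.43 (permutation p = 0.0236, adjusted 0.0498). The r was -0.18 for rc_AI230614_s_at (permutation p = 0.305, adjusted 0.358; rho 0.00197, adjusted 0.993) and 0.01 for D84450_at (permutation p = 0.944, adjusted 0.945; rho 0.06, adjusted 0.841).

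The 3 strongest of these relations kept their sign in each subset, but not all kept their size. Without the 2 farthest arrays r was 0.74 for rc_AI112173_at, -0.63 for J04629_at and -0.66 for D90048exon_g_at. Within the longer and the shorter style it was 0.70 and 0.85 for rc_AI112173_at, -0.74 and -0.73 for J04629_at, and -0.85 and -0.46 for D90048exon_g_at. Among young, mid-aged and aged arrays r was 0.82, 0.68 and 0.78 for rc_AI112173_at, -0.42, -0.84 and -0.75 for J04629_at, and -0.47, -0.71 and -0.94 for D90048exon_g_at. The median size of r with the Gapdh ratio was 0.32 over the 3861 tested probe sets, and 4.92%, 5.28% and 1.17% of them had an r at least as large in size as rc_AI112173_at, J04629_at and D90048exon_g_at. With the ratio as a covariate, the J04629_at difference was 0.34 for mid-aged minus young (adjusted p = 0.309) and 0.25 for aged minus young (adjusted p = 0.366), while aged minus mid-aged was -0.084 (adjusted p = 0.958), beside -0.29 without the covariate. For rc_AI112173_at the covariate gave 0.095 for aged minus young (adjusted p = 0.639) and 0.096 for aged minus mid-aged (adjusted p = 0.929), beside 0.16 and 0.22 without it. Mid-aged minus young was then -0.0015 (adjusted p = 0.997) for rc_AI112173_at and 0.14 (adjusted p = 0.847) for D90048exon_g_at, beside -0.06 and 0.35 without the covariate.

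**Figure D4:**
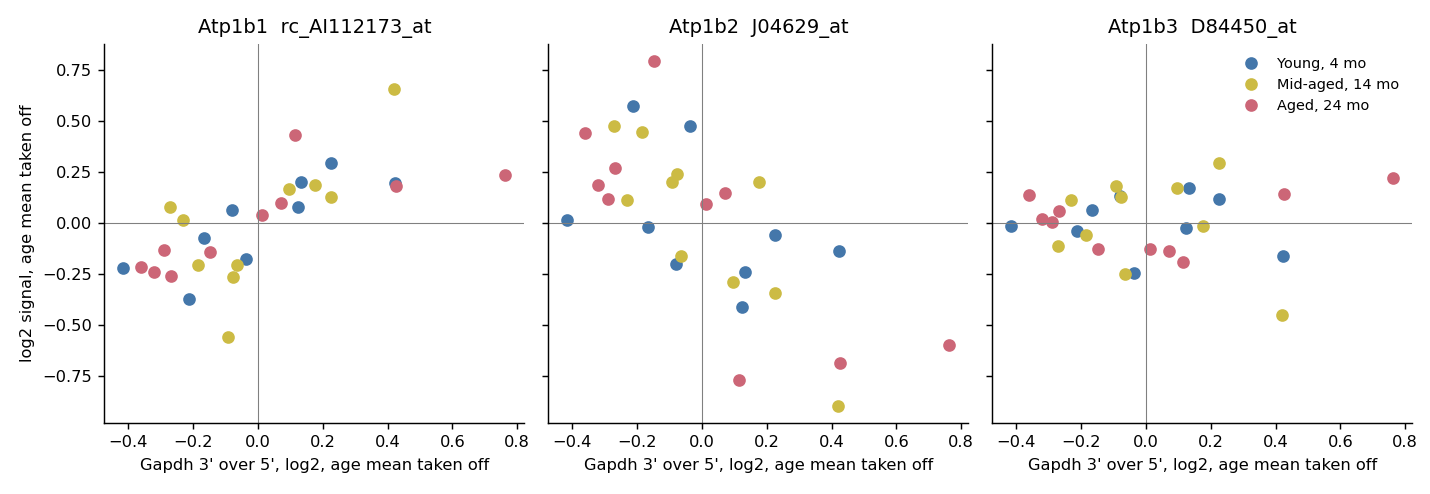
Deviation of the log2 signal from the mean of its age (vertical axis) against the deviation of the log2 ratio of 3′ to 5′ Gapdh control signal (horizontal axis) for 1 probe set of each gene; each point is 1 of 29 arrays, coloured by age. Atp1b1 rc_AI112173_at slopes upward (r 0.71), Atp1b2 J04629_at slopes downward (r -0.70), and Atp1b3 D84450_at shows no slope (r 0.01).

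Likeness of an array to its own age had an adjusted p under 0.05 with 4 of the 6 probe sets by Pearson's r. By rho only rc_AI112173_at passed. Likeness is itself computed from all probe sets that are not controls, and the share of them that would pass was not computed. The count of 4 therefore cannot be read as particular to the members. The r was -0.57 for rc_AI112173_at (permutation p = 0.00311, adjusted 0.00985; rho -0.59, adjusted 0.00431), 0.52 for D90048exon_g_at (permutation p = 0.00696, adjusted 0.0189; rho 0.42, adjusted 0.0649), 0.47 for J04629_at (permutation p = 0.0172, adjusted 0.0363; rho 0.41, adjusted 0.0664) and 0.46 for D84450_at (permutation p = 0.0261, adjusted 0.0496; rho 0.34, adjusted 0.152). Without the 2 farthest arrays these r were -0.47, 0.61, 0.51 and 0.27. In the longer style they were -0.67, 0.55, 0.59 and 0.45, and in the shorter style -0.38, 0.39, 0.59 and -0.11. For rc_AI230614_s_at and X63375exon_at r was 0.30 and 0.20 (permutation p = 0.0829 and 0.316, adjusted 0.131 and 0.358).

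Other genes were ranked by their Pearson r with each member's brightest probe set over the 29 arrays, age means taken off, among 2404 other genes with 1 probe set each. All these values share the arrays and their RNA quality, and they are given as a description. For Atp1b1 the 5 highest were COX1, a mitochondrially encoded chain of cytochrome c oxidase, at 0.93, the alpha-tubulin Tuba1b at 0.92, the cytochrome c oxidase chain Cox8a at 0.92, the ribosomal protein Rps29 at 0.92 and the chaperone Hsp90ab1 at 0.91. For Atp1b2 they were Syn1, the synaptic vesicle protein synapsin I, at 0.91, the vesicle GTPase Rab3a at 0.81, the endocytic adaptor Epn1 at 0.80, the transcription elongation factor Supt5h at 0.80 and the transporter Slc35b1 at 0.80. Atp1b3 was most like Sec31a, a coat protein of vesicles that leave the endoplasmic reticulum, at 0.82, followed by the leukotriene enzyme Lta4h at 0.81, the scaffold Cnksr2 at 0.80, the RNA-binding protein Hnrnpf at 0.79 and Plekha1 at 0.78.

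Against lists of cell type markers, the median r of Atp1b2 was -0.20 over 13 astrocyte markers, 0.13 over 16 neuron markers and -0.49 over 9 oligodendrocyte markers, beside -0.07 over all other genes. Its r ranged from -0.73 to 0.35 among the astrocyte markers and from -0.78 to 0.91 among the neuron markers. Atp1b1 had a median r of -0.04 with the neuron and 0.28 with the astrocyte markers, beside 0.07 over all other genes. For Atp1b3 the medians were 0.03 and -0.17, beside -0.03. The markers of 1 cell type therefore spread widely in their likeness to each member.

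Among the genes listed as pump partners, 7 were on the array and 1 was tested: Fxyd1, which encodes phospholemman, a small membrane protein that binds the pump and regulates it. The others on the array were Atp1a4, Fxyd2, Fxyd4 and the proton-potassium pump genes Atp4a, Atp4b and Atp12a. Fxyd1 has 2 probe sets from 1 sequence, and they disagreed on the threshold. The probe set rc_AA799645_g_at does not represent the gene in the list and was added after its values were seen. On rc_AA799645_g_at, the log2 signal of Fxyd1 had a lowest, median and highest value of 9.95, 10.08 and 10.64 in young, 10.26, 10.46 and 10.95 in mid-aged, and 10.55, 10.85 and 11.29 in aged arrays. Of the 10 aged arrays, 8 lay above every young array. The aged mean was 10.84 ± 0.22 and the young mean 10.18 ± 0.21, so Fxyd1 rose 1.58-fold on this probe set (log2 difference 0.66 ± 0.10, adjusted p = 0.000105). Mid-aged minus young was 0.31 ± 0.10 (adjusted p = 0.232) and aged minus mid-aged 0.36 ± 0.10 (adjusted p = 0.417).

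The brighter probe set of Fxyd1, rc_AA799645_at, which represents the gene in the list, had a lowest, median and highest log2 signal of 11.91, 12.23 and 12.35 in young, 12.04, 12.28 and 12.67 in mid-aged, and 12.20, 12.43 and 12.65 in aged arrays. Again 8 of the 10 aged arrays lay above every young array. Its aged minus young difference was 0.27 ± 0.08 (unadjusted p = 0.00325, adjusted p = 0.0997), which did not pass. The rise on rc_AA799645_g_at passed in all 16 other settings that give it (0.54 to 0.81, highest adjusted p 0.00258) and with each array left out in turn (0.61 to 0.72). On rc_AA799645_at, 2 of the 16 settings passed.

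**Figure D5:**
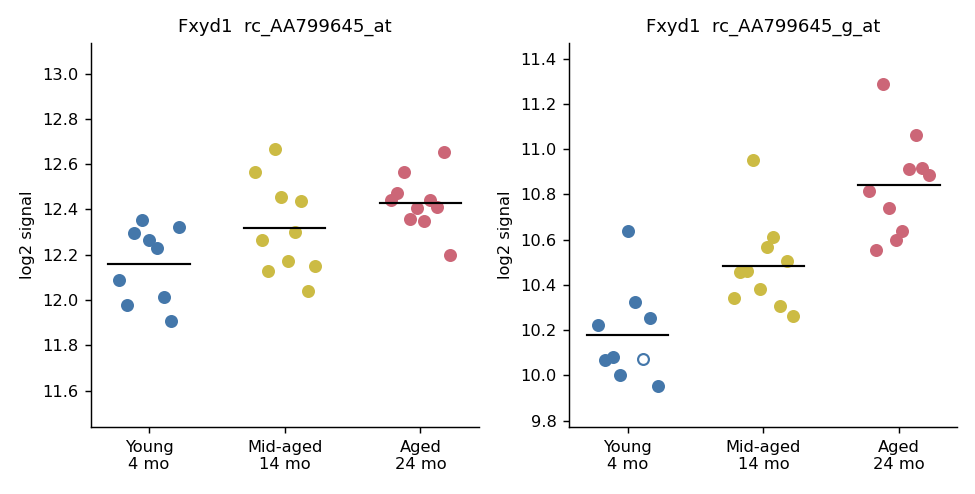
Log2 signal of the 2 probe sets of Fxyd1 on each array, with young arrays (at 4 months), mid-aged arrays (at 14 months) and aged arrays (at 24 months) from left to right; filled points were called present and bars are means. On both probe sets 8 of the 10 aged arrays lie above every young array, and the difference of means is 0.66 on rc_AA799645_g_at and 0.27 on rc_AA799645_at.

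The list of transporters, most of which draw on the sodium or potassium gradient, had 8 of 13 genes tested. Of these, 0 passed the threshold in any pair of ages. The median aged minus young difference of the list was 0.06, beside -0.03 over all genes. The 3 smallest p-values for aged vs young belonged to Slc12a2, a sodium-potassium-chloride cotransporter, with 0.27 ± 0.08 (adjusted p = 0.0967), and to the glutamate transporters Slc1a2, with 0.22 ± 0.10 (adjusted p = 0.295), and Slc1a1, with -0.21 ± 0.10 (adjusted p = 0.338). For Slc12a2, 8 aged and 9 mid-aged arrays lay above every young array, and its second tested probe set gave 0.05 for aged minus young. The 2 further tested probe sets of Slc1a1 gave -0.00125 and 0.09, so its probe sets disagreed. Of the spectrin, adducin and ankyrin genes of the membrane skeleton that anchors the pump, 4 of 10 were tested, 0 passed and the median aged minus young difference was 0.12.

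Markers of other cells moved with age in the same RNA. For aged vs young, 5 of 5 tested microglia markers and 3 of 9 oligodendrocyte markers passed upward. For neuron, astrocyte and choroid plexus markers it was 0 of 16, 0 of 13 and 0 of 3. Over all tested probe sets 1.66% passed, in either direction. Of the 10 microglia markers on the array, 5 were tested. Cd74 among them had a present call on 11 of 29 arrays and a young mean of 7.54, near the floor of 7.33. The lists were chosen with earlier results of these data known, so these counts are a description. The astrocyte markers still leaned upward. Of the 13, 11 had a positive aged minus young difference, with a median of 0.18 beside -0.03 over all genes. For the neuron markers the median was -0.02, with 7 of 16 positive. Among vascular and blood genes 2 of 5 passed upward, and both were haemoglobin chains: Hbb with an aged minus young difference of 1.30 ± 0.22 and Hbb-b1 with 0.93 ± 0.13. The endothelial receptor Kdr had -0.12 ± 0.19 (adjusted p = 0.824), the smooth-muscle actin Acta2 -0.45 ± 0.18 (adjusted p = 0.244) and the glucose transporter Slc2a1 0.26 ± 0.12 (adjusted p = 0.332). The summed signal of the microglia markers ranged from 21041 to 24660 in young, 20459 to 29623 in mid-aged and 27561 to 36021 in aged arrays, and that of the oligodendrocyte markers from 82109 to 97178 in young, 85925 to 110377 in mid-aged and 96540 to 137281 in aged arrays. Vascular and blood genes, haemoglobins included, summed to 11188 to 20308 in young, 16152 to 26092 in mid-aged and 22352 to 38187 in aged arrays. Of the microglia markers on the array, C1qc, Csf1r and Ptprc were present on no array, as were the vascular genes Flt1 and Vwf. The part of these shifts in the Fxyd1 difference was not tested.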

How the data were processed

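The authors deposited, per the file headers, 1 file per array with a signal intensity and a detection call for each of 8799 probe sets. A deposited table of intensities for the whole series, with values from -39359 to 70317, served as an alternative. The software version, its scaling and the making of that table are not given in the sources used here. One file held 1 column of another array, which was not used. Genes come from the platform annotation (1 symbol for 7006 probe sets), 0 of them updated through RefSeq.

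The 59 control probe sets were left out and the trimmed mean of each array (2% off each end) was matched to the average (factors from 0.999 to 1.00). Signals were floored at the median of values called absent, 160.8, since 5 signals were 0, and log2 was taken. Folds refer to floored signals. All 3 ages were fitted together over 3861 probe sets by lmFit and eBayes of limma 3.58.1 (R 4.3.3), two-sided, with Benjamini-Hochberg adjustment over all of them and a threshold of 0.05. The steps were tested on simulated data. Relations and exact permutation tests used Python 3.11.15, numpy 2.4.6, pandas 2.3.3 and scipy 1.17.1, and figures matplotlib 3.10.9.

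The members and lists were chosen with earlier results of these data known. Named genes are all member probe sets, for each member the 5 genes most alike by r, and all pump partners on the array. Of the transporter list, the 3 genes with the smallest p for aged vs young are named. The vascular and blood list has all 5 tested genes named. Tested genes of the other lists are given as counts, medians or sums, save Cd74, which is named for its low signal. Markers present on no array are named. A gene of a list is represented by its tested probe set with the highest mean. For Fxyd1 that is rc_AA799645_at, and rc_AA799645_g_at, on which the rise passed, was added after its values were seen.

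Alternatives were other scalings, the deposited series table, filters, floors, a variance trend with intensity, weights per array, a replicate block, fits of 2 ages, leaving out each array or the 6 least alike ones, name style, and the Gapdh ratio as a covariate. The fit within the shorter name style was chosen after seeing the data. Precision is limited by the number of arrays, and no coordinates or sequences are given.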

Additional observations from a re-analysis of the deposited data

Results flagged for a closer look

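For Fxyd1 on rc_AA799645_g_at, mid-aged array 4 stood apart from the other mid-aged arrays, with a log2 signal of 10.95 where the next highest was 10.61, a gap of 0.492 of the range of the 10 arrays. It was the 1 such value among 36 sets of arrays examined (12 probe sets in 3 ages), and chance gives about 1 in 20.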

How the results depend on the processing

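Of 376 member differences under other settings, 355 kept their sign and their side of the threshold, 20 changed sign, and 1 crossed the threshold: Atp1b2 J04629_at, mid-aged minus young, at 0.51 without the 6 least alike arrays. The cause was not tested. Sign changes, none with an adjusted p under 0.05, were as follows. Aged minus young turned to 0.34 (deposited series table), 0.29 (array weights), 0.49 (without the 6 arrays) and 0.087 (Gapdh covariate) for D90048exon_g_at, to -0.082 (series table), -0.35 (style term) and -0.28 (longer style alone) for X63375exon_at, to -0.060 (series table) for D84450_at and to -0.071 (longer style alone) for J04629_at. Aged minus mid-aged turned to 0.00247 (median scaling), 0.041 (style term) and 0.054 (longer style) for D84450_at, to 0.029 (median scaling), 0.017 (series table) and 0.032 (Gapdh covariate) for rc_AI230614_s_at, and to 0.10 (array weights), 0.094 (without the 6 arrays) and 0.014 (Gapdh covariate) for X63375exon_at. For D84450_at the series table gave -0.042 for mid-aged minus young and -0.012 for mid-aged against the middle of the others. With each array left out, 685 of 696 differences kept sign and side, the lowest adjusted p was 0.193, and signs turned for D90048exon_g_at aged minus young (-0.29 to 0.13), rc_AI112173_at mid-aged minus young (-0.13 to 0.00141), and aged minus mid-aged of D84450_at (-0.082 to 0.000238) and rc_AI230614_s_at (-0.076 to 0.032). X63375exon_at and D90048exon_g_at were not tested with presence on at least 20 arrays, and the shorter style holds no aged array.

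Counts over all probe sets (64 for aged vs young, 16 for mid-aged vs young, 2 for aged vs mid-aged) were 99, 8 and 0 with the series table, 326 and 87 with array weights for the pairs with young, 152, 117 and 0 without the 6 arrays, and 16 and 0 within the longer style for the pairs with young. The Gapdh covariate gave 98 for aged vs young, the aged vs mid-aged count was 0 with it, with no filter and with 2 ages fitted alone, and the style term gave 1 rather than 0 for mid-aged against the middle. With each array left out the counts ran from 52 to 84, 8 to 22 and 0 to 4.

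Same-numbered arrays were not treated as pairs in the reported fit. Of 28 pairs of same-numbered arrays, 13 had a correlation of deviations over 0.1 (median 0.09, range -0.20 to 0.58). Arrays of unlike number were not compared in this way, so these values cannot decide whether the numbers pair the samples. With the replicate block J04629_at gave 0.39 ± 0.14 (SE, adjusted p = 0.233) for mid-aged minus young, where the SE without the block was 0.19. It gave 0.11 for aged minus young, no member passed, and the counts were 77, 13 and 2. Beyond the members, Fxyd1 rc_AA799645_at passed for aged vs young with the series table (0.34) and array weights (0.28), Slc12a2 with array weights (0.30) and without aged array 2 alone (0.32), and Slc1a1 with array weights (-0.35), without the 6 arrays (-0.35) and with the Gapdh covariate (-0.27). For mid-aged vs young, Slc12a2 passed without the 6 arrays (0.34) and Slc1a1 without them (-0.41) and with array weights (-0.39).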

Other observations

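Atp4a, the catalytic chain of the gastric proton-potassium pump, was called present by 1 of its 3 probe sets, J02649_at, on 7 of 29 arrays: 1 young, 1 mid-aged and 5 aged. Its other 2 probe sets, and those of Atp4b and Atp12a, were present on 0 arrays, and J02649_at was not tested, since it fell short of the 9 arrays required.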
